A study of Mus musculus with 6 samples.

Results

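The receptor tyrosine kinases of B16F10 cells, outside the Eph receptors and Met, were followed from a list of 38 mouse genes matched by symbol to the processed table. Of the 38 genes, 20 had a row among the 15726 genes of the table, and 14 of these had a mean of at least 1 FPKM in the PBS libraries, the level taken here as expressed. FPKM is a read count scaled by the length of the gene and by how deeply the library was sequenced. B16F10 is an established mouse melanoma line, and the study set 3 libraries of cells given rPPAA18C6@Dox at 50 μg/mL against 3 libraries of cells given PBS, all taken after 8 h. No label explains the code name of the preparation, and the title of the series speaks of a potassium ionophore-based platform that responds to reactive oxygen species, of ER stress and of pyroptosis. All 6 libraries come from the same line, with no genetic change stated, and nothing in the labels says whether they stem from different cultures. The p-values therefore rest on a spread between libraries that may be no more than technical.

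Receptor tyrosine kinases are membrane proteins that bind a ligand outside the cell, pair up and phosphorylate tyrosines on their own tails. Adaptors such as Grb2, Shc1 and the IRS proteins dock there and pass the signal to the RAS-ERK and PI3K-AKT pathways, and phosphatases and CBL ubiquitin ligases end it. In cells of the melanocyte lineage, Kit and the neuregulin receptor Erbb3 are known from development, and the TAM receptors Tyro3, Axl and Mertk from melanoma. The labels state no question about these receptors in particular, and the comparison asks how their mRNA responded to the preparation.

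The receptor mRNAs of these cells changed little. Of the 14 expressed members, all of which were tested, 1 fell and none rose. It was Erbb3, whose mean FPKM fell by 8.79%. The other 13 did not pass the test, and their 95% intervals lay between -0.26 (Igf1r) and 0.11 (Tyro3) on the log2(FPKM + 1) scale. The test was limma with Benjamini-Hochberg adjustment over all 10680 genes with a mean of at least 1 FPKM in either group, at an adjusted p under 0.05. It placed 9.93% of those genes past the threshold, 4.66% higher and 5.26% lower, so the share of receptors that fell (7.14%) was near the background. Of the 14 estimates 10 were negative, with a median log2 fold change of -0.09, and among all tested genes 56.5% were negative, with a median of -0.01.

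**Figure D1:**
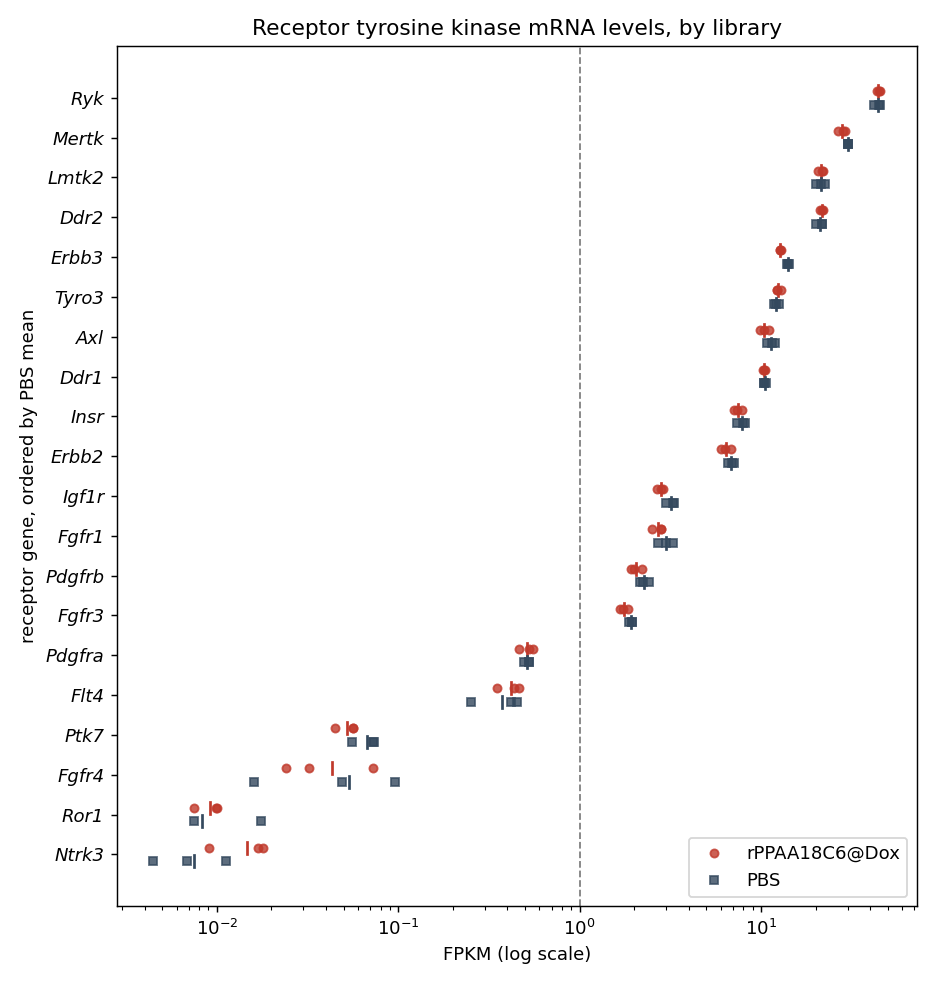
FPKM of the 20 receptors with a row, on a log axis, in the 3 rPPAA18C6@Dox libraries (circles, upper line of each gene) and the 3 PBS libraries (squares, lower line). Short vertical bars are group means, the dashed line is 1 FPKM, and the PBS library of Ror1 listed at 0 is not drawn. The 14 expressed receptors span 1.75 to 44.4 FPKM in rPPAA18C6@Dox cells and 1.93 to 43.9 FPKM in PBS cells, with each receptor's groups close together.

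In PBS cells the order of the levels ran from Ryk through Mertk, Lmtk2, Ddr2, Erbb3, Tyro3, Axl, Ddr1, Insr, Erbb2, Igf1r, Fgfr1 and Pdgfrb to Fgfr3. Neighbours in this order whose PBS libraries overlapped were Lmtk2 with Ddr2, Tyro3 with Axl, and Igf1r with Fgfr1. Summed over the 14 receptors, the level was 188, 185 and 181 FPKM in the rPPAA18C6@Dox libraries and 187, 189.6 and 192 FPKM in the PBS libraries, and the groups overlapped. Ryk held 24.1% of the sum in rPPAA18C6@Dox cells and 23.1% in PBS cells, and Mertk held 15.1% in rPPAA18C6@Dox cells and 15.9% in PBS cells. The order depends on the gene lengths behind the FPKM. The length that the values imply was 3.02 times the longest GENCODE vM21 transcript for Ddr1 (11683 against 3874 bases) and 1.73 times for Mertk (7442 against 4302 bases). With the longest transcript as the length, the PBS means would be 52.2 FPKM for Mertk, 47.1 for Ryk and 31.6 for Ddr1. This puts Mertk above Ryk, and Ddr1 above Lmtk2 and Ddr2. Ddr2 (22.2 FPKM) would then lie above Lmtk2 (21.8 FPKM), and Axl (14.7 FPKM) above Erbb3 (14.1 FPKM) and Tyro3 (13.9 FPKM). The ratio of FPKM between groups does not depend on this length, but the filter at 1 FPKM and fold changes on the log2(FPKM + 1) scale do. Of the expressed members, Ddr1, Ddr2 and Fgfr1 share exon sequence with a noncoding gene on the other strand. Also on the other strand, Fgfr3 overlaps a gene of unconfirmed type, and Erbb2 the coding gene Mien1. The libraries came from a stranded kit, but the strand setting of the counting is not given in the sources used here. The reads of all these receptors may therefore be mixed with those of their neighbours.

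Erbb3 and Erbb2 were the expressed members of the EGF receptor family. ERBB3 binds neuregulins but has little kinase activity of its own, and signals mainly by pairing with ERBB2, which has no known ligand. Erbb3 had 12.8, 12.8 and 12.8 FPKM in rPPAA18C6@Dox cells, against 14.2, 13.9 and 14.01 FPKM in PBS cells. All 3 rPPAA18C6@Dox values were below all 3 PBS values, and 2835, 2848 and 2839 reads stood behind the rPPAA18C6@Dox values. The coefficient of variation of the 3 rPPAA18C6@Dox FPKM values was 0.0344%, where counting error of a single library at this depth is 1.83%. Erbb3 averaged 12.8 ± 0.00441 FPKM in rPPAA18C6@Dox cells and 14.04 ± 0.127 FPKM in PBS cells (SD, n = 3 each). It fell by 0.12 on the log2(FPKM + 1) scale (SE 0.0300, limma adjusted p = 0.0305). The call was lost in each of the 6 fits that left out 1 library, with adjusted p between 0.0695 and 0.0855. The fold change kept its sign in those fits.

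Erbb2 had 6.86, 6.36 and 6.05 FPKM in rPPAA18C6@Dox cells, against 6.57, 6.92 and 7.12 FPKM in PBS cells. The groups overlapped, and the log2 fold change of -0.09 did not pass the test (95% interval -0.20 to 0.03, limma adjusted p = 0.312). The ratio of Erbb3 to Erbb2 was 1.999 ± 0.126 in rPPAA18C6@Dox cells and 2.05 ± 0.0992 in PBS cells (SD, n = 3 each), and did not differ beyond its spread (two-sided exact permutation test, p = 0.60, adjusted p = 0.84 over 7 ratios within receptor families). With 3 libraries against 3 this test cannot go below 0.10. Egfr and Erbb4 had no row and were not analysed here.

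**Figure D2:**
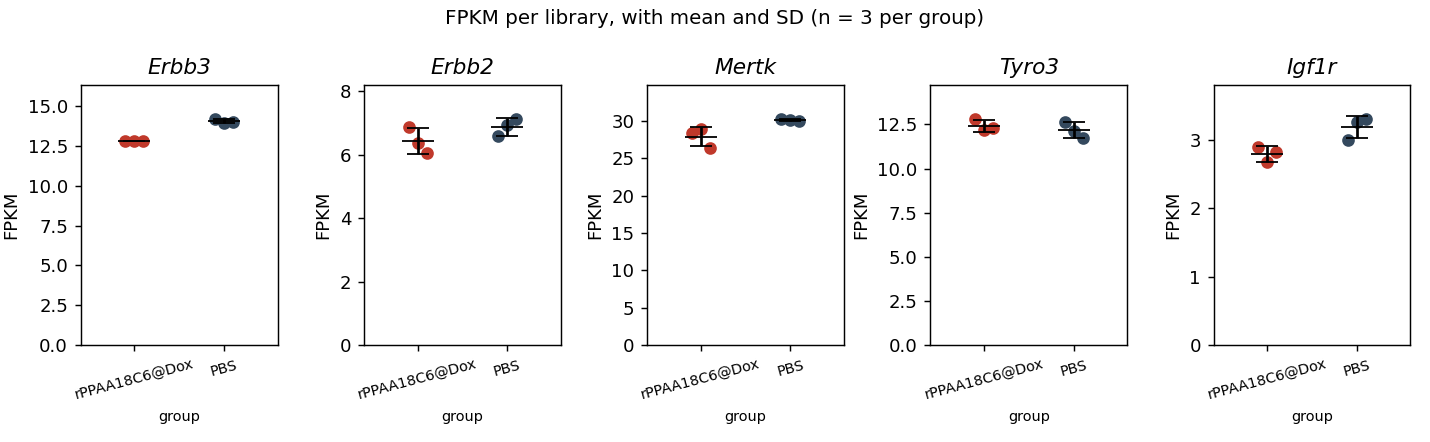
FPKM per library (points) for Erbb3, its partner Erbb2, the TAM receptors Mertk and Tyro3, and Igf1r, with rPPAA18C6@Dox left and PBS right in each panel and axes from 0. Bars give the mean and SD of 3 libraries. The groups of Erbb3, Mertk and Igf1r do not overlap, those of Erbb2 and Tyro3 do, and only Erbb3 passed the limma test.

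Mertk, Tyro3 and Axl are the TAM receptors, known for clearing dying cells and for survival signals in melanoma. Of their vitamin K-dependent ligands, Gas6 binds each of them, and protein S (Pros1) binds Mertk and Tyro3. Mertk had 28.4, 28.9 and 26.4 FPKM in rPPAA18C6@Dox cells, against 30.3, 30.1 and 30.1 FPKM in PBS cells. The groups did not overlap, yet the difference missed the threshold (log2 fold change -0.11, SE 0.0347, limma adjusted p = 0.0769). Axl had 10.4, 11.005 and 9.93 FPKM in rPPAA18C6@Dox cells, against 10.8, 11.5 and 12.0 FPKM in PBS cells. Its groups overlapped at the top rPPAA18C6@Dox and the bottom PBS library (log2 fold change -0.12, SE 0.0472, limma adjusted p = 0.138). Tyro3 had 12.8, 12.2 and 12.3 FPKM in rPPAA18C6@Dox cells, against 12.6, 12.1 and 11.7 FPKM in PBS cells, and its groups overlapped (0.03, 95% interval -0.05 to 0.11, limma adjusted p = 0.669). The ratio of Mertk to Tyro3 was 2.22, 2.37 and 2.15 in rPPAA18C6@Dox cells and 2.40, 2.49 and 2.56 in PBS cells, without overlap. Its exact permutation p was 0.10, the smallest the design allows, and the adjusted p over the 7 ratios was 0.35. The ratio of Axl to Mertk was 0.374 ± 0.00849 in rPPAA18C6@Dox cells and 0.379 ± 0.0208 in PBS cells (SD, n = 3 each; exact permutation p = 0.90, adjusted p = 1). That of Axl to Tyro3 was 0.840 ± 0.0554 in rPPAA18C6@Dox cells and 0.941 ± 0.0826 in PBS cells (SD, n = 3 each; exact permutation p = 0.20, adjusted p = 0.35). The ligand Pros1 was at 19.6 ± 0.133 FPKM in rPPAA18C6@Dox cells and 19.9 ± 1.03 FPKM in PBS cells (limma adjusted p = 0.862), and Gas6 was not analysed here.

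Igf1r and Insr are the receptors of insulin-like growth factors and insulin, and form hybrid dimers with each other. Igf1r had 2.89, 2.67 and 2.82 FPKM in rPPAA18C6@Dox cells, against 3.002, 3.25 and 3.31 FPKM in PBS cells. The groups did not overlap, the rPPAA18C6@Dox mean differed from the PBS mean by -12.3%, and the test was not passed (log2 fold change -0.14, 95% interval -0.26 to -0.03, limma adjusted p = 0.113). Insr had 7.85, 7.40 and 7.12 FPKM in rPPAA18C6@Dox cells, against 7.34, 8.15 and 8.01 FPKM in PBS cells, and its groups overlapped (-0.06, 95% interval -0.17 to 0.05, limma adjusted p = 0.461). The ratio of Igf1r to Insr was 0.375 ± 0.0187 in rPPAA18C6@Dox cells and 0.407 ± 0.00694 in PBS cells, without overlap (SD, n = 3 each; exact permutation p = 0.10, adjusted p = 0.35).

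Mertk, Axl and Igf1r were past the threshold in a second test, limma's voom on whole reads recovered from the FPKM. Its log2 fold changes do not carry the 1 FPKM that the first test adds to each value. With voom these were -0.11 for Mertk (adjusted p = 0.00862), -0.13 for Axl (0.0429) and -0.19 for Igf1r (0.00831), beside -0.13 for Erbb3 (0.00746). That made 4 of 14 receptors lower and none higher with voom (28.6%), against 8.74% of all tested genes lower and 6.58% higher. The authors' deposited table lists an unadjusted p of 0.00352 for Erbb3, 0.00337 for Igf1r, 0.00633 for Mertk and 0.0337 for Axl. A p below 0.05 stands in the authors' deposited table for 4 of the 20 receptors (20.0%) and for 17.5% of all genes.

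**Figure D3:**
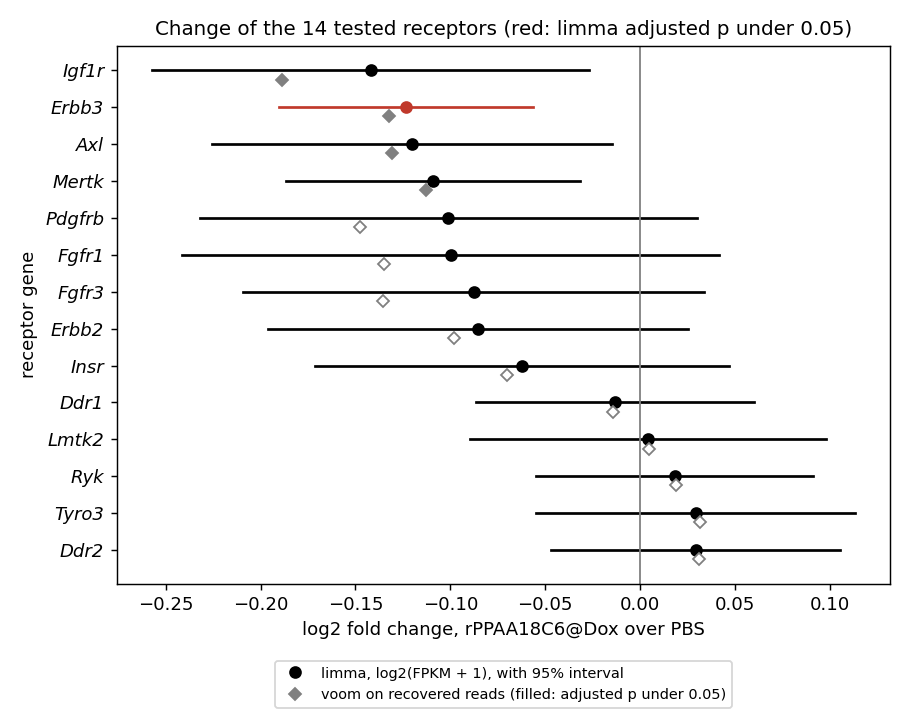
Log2 fold change, rPPAA18C6@Dox over PBS, of the 14 tested receptors. Circles and lines are limma estimates on log2(FPKM + 1) with 95% intervals, red where the adjusted p is under 0.05, and diamonds are voom estimates on recovered reads, filled where the adjusted p is under 0.05. Erbb3 is the only red receptor, and the filled diamonds are Erbb3, Igf1r, Axl and Mertk.

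The RefSeq promoter table held an entry for 10 of the 14 expressed receptors, with 14 promoters between them. Of the 4 receptors past the threshold with voom, Mertk, Igf1r and Axl had an entry and are printed for that reason, and Erbb3 had none. Each runs from 250 bases before to 50 bases after the transcription start in GRCm38.p6, 5′ to 3′ on the strand of the gene. Capitals mark matches on either strand to 5 motifs: the GC box GGGCGG, the E-box CACGTG, the core of the M-box CATGTG, the SOX core ACAAT and the forkhead motif GTAAACA, and no match overlaps another motif in these windows. They lie at chr2:128698665-128698964 on the plus strand for Mertk, chr7:67952007-67952306 on the plus strand for Igf1r and chr7:25788684-25788983 on the minus strand for Axl.
Mertk: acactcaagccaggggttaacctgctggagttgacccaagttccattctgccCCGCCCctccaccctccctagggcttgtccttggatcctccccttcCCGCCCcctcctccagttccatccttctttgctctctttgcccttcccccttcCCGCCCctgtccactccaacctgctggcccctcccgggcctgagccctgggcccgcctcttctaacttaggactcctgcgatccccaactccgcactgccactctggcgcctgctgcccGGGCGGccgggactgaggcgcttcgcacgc
Igf1r: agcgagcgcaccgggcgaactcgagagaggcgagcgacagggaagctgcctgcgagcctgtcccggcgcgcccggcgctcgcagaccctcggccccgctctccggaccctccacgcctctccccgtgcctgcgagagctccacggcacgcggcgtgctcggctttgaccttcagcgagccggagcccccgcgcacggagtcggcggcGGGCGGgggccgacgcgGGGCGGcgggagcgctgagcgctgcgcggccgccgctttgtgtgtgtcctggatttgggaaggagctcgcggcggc
Axl: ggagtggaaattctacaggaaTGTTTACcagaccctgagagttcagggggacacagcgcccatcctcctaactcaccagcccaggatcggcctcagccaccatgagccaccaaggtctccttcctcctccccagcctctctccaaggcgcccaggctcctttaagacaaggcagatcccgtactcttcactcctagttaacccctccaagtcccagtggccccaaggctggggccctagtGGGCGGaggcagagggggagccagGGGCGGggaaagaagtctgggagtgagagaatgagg
Mertk had 4 matches to the GC box, Igf1r 2 and Axl 2, and Axl also had 1 to the forkhead motif. The GC box was in 10 of the 14 receptor promoters and in 35.7% of the 32851 promoters of the table. The 14 belong to expressed receptors only, and the 32851 were not chosen by expression. The shares of each motif are therefore not like for like. The forkhead motif was in 1 of the 14 and in 3.65% of all promoters. None of the 14 held the E-box, which 7.15% of all promoters hold. The M-box core was in 2 of the 14 (14.2% of all promoters) and the SOX core in 2 (31.0% of all promoters). The base composition of the 3 printed windows was 66.0% GC for Mertk, 76.0% for Igf1r and 60.3% for Axl.

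The expressed FGF and PDGF receptors were at low levels, with 281 to 611 reads behind each value. Fgfr1, a receptor of FGF2, had 2.82, 2.81 and 2.52 FPKM in rPPAA18C6@Dox cells, against 3.25, 2.999 and 2.70 FPKM in PBS cells. Its groups overlapped (log2 fold change -0.10, 95% interval -0.24 to 0.04, limma adjusted p = 0.355). Fgfr3 had 1.67, 1.74 and 1.85 FPKM in rPPAA18C6@Dox cells, against 1.96, 1.95 and 1.87 FPKM in PBS cells. Its groups did not overlap, with 281 to 312 reads per rPPAA18C6@Dox library and 312 to 333 per PBS library, and the difference did not pass the test (-0.09, 95% interval -0.21 to 0.03, limma adjusted p = 0.345). The ratio of Fgfr1 to Fgfr3 was 1.55 ± 0.174 in rPPAA18C6@Dox cells and 1.55 ± 0.109 in PBS cells (SD, n = 3 each; exact permutation p = 1). Pdgfrb, a receptor of mesenchymal cells and pericytes, had 2.20, 1.93 and 1.998 FPKM in rPPAA18C6@Dox cells, against 2.15, 2.23 and 2.41 FPKM in PBS cells, with overlap (-0.10, 95% interval -0.23 to 0.03, limma adjusted p = 0.312). Fgfr3 and Pdgfrb were the expressed receptors nearest to the cut of 1 FPKM, at PBS means of 1.93 and 2.26 FPKM. Pdgfra was the nearest below it, at 0.514 FPKM.

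Over all tested receptors, Erbb3, Mertk, Igf1r and Fgfr3 were the 4 whose groups did not overlap, each lower in rPPAA18C6@Dox cells. They make up 28.6% of the 14 tested receptors, and 18.7% of all tested genes lay lower without overlap and 12.6% higher. For Fgfr3 the top rPPAA18C6@Dox and the bottom PBS library both had 312 reads, and only the scaling by depth set them apart (1.85 and 1.87 FPKM).

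The collagen receptors Ddr1 and Ddr2, the Wnt receptor Ryk and Lmtk2 did not pass the test. DDR1 and DDR2 are activated by triple-helical collagen rather than by a soluble factor. Ddr2 had 21.9, 21.7 and 21.1 FPKM in rPPAA18C6@Dox cells, against 20.2, 21.6 and 21.6 FPKM in PBS cells (log2 fold change 0.03, 95% interval -0.05 to 0.11, limma adjusted p = 0.633). Ddr1 had 10.5, 10.2 and 10.3 FPKM in rPPAA18C6@Dox cells, against 10.4, 10.4 and 10.6 FPKM in PBS cells (-0.01, 95% interval -0.09 to 0.06, limma adjusted p = 0.839). Both overlapped between groups, and the ratio of Ddr2 to Ddr1 was 2.08 ± 0.0377 in rPPAA18C6@Dox cells and 2.02 ± 0.0713 in PBS cells (SD, n = 3 each; exact permutation p = 0.20, adjusted p = 0.35). Ryk, a Wnt receptor whose kinase domain is inactive, had 45.4, 43.3 and 44.6 FPKM in rPPAA18C6@Dox cells, against 44.6, 42.02 and 45.05 FPKM in PBS cells. Its groups overlapped (0.02, 95% interval -0.05 to 0.09, limma adjusted p = 0.769). Lmtk2, a membrane-anchored kinase of endosomal traffic grouped with these receptors by sequence, had 21.9, 21.7 and 20.6 FPKM in rPPAA18C6@Dox cells, against 20.1, 22.5 and 21.5 FPKM in PBS cells, with overlap (0.00, 95% interval -0.09 to 0.10, limma adjusted p = 0.963). The interval of each of these 4 receptors excludes a change larger than 0.11 on the log2(FPKM + 1) scale in either direction.

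The 6 receptors with a row below 1 FPKM did not enter the test, and their groups overlapped. In the fit with no filter on low values none of them passed, with the lowest limma adjusted p at 0.599, that of Ptk7. Pdgfra had 0.462, 0.525 and 0.556 FPKM in rPPAA18C6@Dox cells, against 0.491, 0.527 and 0.524 FPKM in PBS cells. Flt4, a receptor of VEGF-C, had 0.436, 0.462 and 0.352 FPKM in rPPAA18C6@Dox cells, against 0.252, 0.420 and 0.453 FPKM in PBS cells. The remaining 4 rested on at most 16 reads per library. Ptk7, a Wnt co-receptor without kinase activity, had 10, 10 and 8 reads in rPPAA18C6@Dox cells and 13, 10 and 13 in PBS cells, and Fgfr4 had 4, 9 and 3 in rPPAA18C6@Dox cells and 12, 2 and 6 in PBS cells. The neurotrophin-3 receptor Ntrk3 had 15, 8 and 16 reads in rPPAA18C6@Dox cells and 4, 10 and 6 in PBS cells. Ror1 had 4, 4 and 3 reads in rPPAA18C6@Dox cells and 0, 3 and 7 in PBS cells. The 0 is that of PBS replicate 1 and allows up to 0.00739 FPKM, taking 3 reads as the limit of a count of 0, which covers counting error only. The 18 listed receptors with no row, not analysed here, were Egfr, Erbb4, Kit, Csf1r, Flt1, Kdr, Flt3, Fgfr2, Ntrk2, Ret, Ros1, Alk, Ltk, Ror2, Musk, Tek, Tie1 and Styk1.

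Of 63 listed ligands, 29 had a row and 12 were tested, of which 1 rose and 4 fell, with a median log2 fold change of -0.02. Against this and the lists that follow stand 4.66% of all tested genes higher and 5.26% lower. Pgf, placenta growth factor, a VEGF-family ligand of Flt1, had 3.53, 3.13 and 4.496 FPKM in rPPAA18C6@Dox cells, against 1.78, 2.18 and 1.75 FPKM in PBS cells. The lowest rPPAA18C6@Dox library was above the highest PBS library (log2 fold change 0.69, SE 0.0992, limma adjusted p = 0.00250). Vegfc, a ligand of Flt4, fell to 6.66 ± 0.243 FPKM in rPPAA18C6@Dox cells, against 7.94 ± 0.438 FPKM in PBS cells (-0.22, SE 0.0466, limma adjusted p = 0.0166). Vegfd, another ligand of Flt4, lay below the filter, with 14, 7 and 1 reads in rPPAA18C6@Dox cells and 15, 16 and 18 in PBS cells. The groups of Vegfd did not overlap, and it did not pass in the fit with no filter (limma adjusted p = 0.193). Agrn, which acts on Musk through Lrp4, fell to 13.4 ± 0.874 FPKM in rPPAA18C6@Dox cells, against 16.1 ± 0.0865 FPKM in PBS cells (-0.25, SE 0.0439, limma adjusted p = 0.00654). Angpt2, a ligand of Tek, fell by 0.22 (SE 0.0495, limma adjusted p = 0.0220), and Csf1, a ligand of Csf1r, fell by 0.23 (SE 0.0544, limma adjusted p = 0.0296). Flt1, Musk, Tek and Csf1r had no row, and Flt4 lay below 1 FPKM.

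The abundant VEGF ligands did not pass the test. Vegfb was at 51.4 ± 1.104 FPKM in rPPAA18C6@Dox cells and 49.8 ± 1.26 FPKM in PBS cells, and Vegfa at 22.1 ± 0.931 FPKM in rPPAA18C6@Dox cells and 22.7 ± 1.74 FPKM in PBS cells (SD, n = 3 each; limma adjusted p = 0.373 and 0.736). Pdgfa, a ligand of Pdgfra, was at 1.01 ± 0.0945 FPKM in rPPAA18C6@Dox cells and 1.03 ± 0.125 FPKM in PBS cells (limma adjusted p = 0.945). Pdgfb, a ligand of Pdgfrb, lay below the filter, with 0.719, 0.721 and 0.739 FPKM in rPPAA18C6@Dox cells, against 0.620, 0.546 and 0.332 FPKM in PBS cells. Its groups did not overlap, and it did not pass in the fit with no filter (log2 fold change 0.21, limma adjusted p = 0.167). Fgf1, which binds all FGF receptors, was at 0.427 FPKM in rPPAA18C6@Dox cells and 0.447 FPKM in PBS cells, and Fgf9, Fgf17 and Fgf18 had at most 17 reads in any library. The listed neuregulins with a row lay below 1 FPKM, Nrg2 at 0.332 FPKM in rPPAA18C6@Dox cells and 0.348 FPKM in PBS cells and Nrg4 at 0.111 FPKM in rPPAA18C6@Dox cells and 0.0948 FPKM in PBS cells. Hbegf, a ligand of the EGF receptor and Erbb4, was at 2.66 ± 0.228 FPKM in rPPAA18C6@Dox cells and 2.79 ± 0.0688 FPKM in PBS cells (limma adjusted p = 0.598). Kitl, the ligand of Kit, was at 1.07 ± 0.143 FPKM in rPPAA18C6@Dox cells and 0.803 ± 0.167 FPKM in PBS cells (limma adjusted p = 0.162). With voom Kitl was past the threshold (log2 fold change 0.43, adjusted p = 0.0332). Its PBS mean lay below 1 FPKM, so Kitl entered both tests only through its rPPAA18C6@Dox mean. No rise is read from that call. Nrtn, of the GDNF family, was at 2.22 ± 0.272 FPKM in rPPAA18C6@Dox cells and 1.75 ± 0.153 FPKM in PBS cells (limma adjusted p = 0.0833), and passed without rPPAA18C6@Dox replicate 1 (0.0351). The calls of Csf1, Vegfc and Angpt2 were each lost in 3 or more of the 6 fits that left out 1 library, with adjusted p up to 0.0975, 0.0595 and 0.0736.

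Co-receptors went both ways, with 4 of 10 tested members higher and 2 lower and a median log2 fold change of -0.08. With voom 4 were higher and 5 lower. Nrp1, a co-receptor of VEGF receptors that also binds placenta growth factor, had 7.84, 7.64 and 7.31 FPKM in rPPAA18C6@Dox cells, against 5.64, 6.24 and 5.91 FPKM in PBS cells. Its groups did not overlap (0.31, SE 0.0455, limma adjusted p = 0.00281). Cd44, a hyaluronan receptor that can present growth factors, rose by 0.18 (SE 0.0243, limma adjusted p = 0.00209), and the heparan sulfate proteoglycans Sdc3 and Gpc1 rose by 0.18 and 0.09 (limma adjusted p = 0.0130 and 0.0459). Lrp4, which binds agrin and partners with Musk, fell by 0.21 (SE 0.0502, limma adjusted p = 0.0285) and Sdc2 by 0.13 (limma adjusted p = 0.0305). The Gpc1 call was lost in all 6 fits that left out 1 library (adjusted p up to 0.113), and those of Lrp4 and Sdc2 in 5 of the 6 (up to 0.0899 and 0.0868). Gpc1 and Sdc3 share exon sequence with other genes on the opposite strand.

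Among adaptors and signal transducers that dock on the receptors, 3 of 28 fell and none rose, with a median log2 fold change of -0.01. Shc1, which links phosphorylated receptors to Grb2, had 29.1, 28.2 and 27.9 FPKM in rPPAA18C6@Dox cells, against 33.8, 32.5 and 32.2 FPKM in PBS cells, without overlap (-0.20, SE 0.0305, limma adjusted p = 0.00338). Irs1, the docking protein of Igf1r and Insr, fell to 2.56 ± 0.182 FPKM in rPPAA18C6@Dox cells, against 3.12 ± 0.151 FPKM in PBS cells (-0.21, SE 0.0564, limma adjusted p = 0.0452). Pik3r2, a regulatory subunit of PI3K, fell by 0.15 (SE 0.0351, limma adjusted p = 0.0238). The Irs1 call was lost in all 6 fits that left out 1 library (adjusted p 0.0638 to 0.140) and that of Pik3r2 in 4 of them (up to 0.0743). Irs1 and Pik3r2 each overlap another gene on the other strand. The other 25 tested adaptors, Grb2, Sos1 and Irs2 among them, did not pass the test.

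Of 21 tested negative regulators 1 fell and none rose, with a median log2 fold change of 0.01. Ubash3b, a phosphatase that acts on receptors and on kinases of the SYK family, had 7.96, 8.10 and 7.90 FPKM in rPPAA18C6@Dox cells, against 9.46, 9.62 and 10.1 FPKM in PBS cells, without overlap (-0.26, SE 0.0376, limma adjusted p = 0.00287). The ubiquitin ligases Cbl and Cblb and the EGF receptor inhibitor Errfi1 were among the 20 that did not pass. Of 11 tested genes whose transcription follows ERK activity, 2 rose and 3 fell, with a median log2 fold change of 0.00. Dusp4 and Fos rose by 0.52 and 0.68, and Dusp6, Myc and Spred1 fell by 0.40, 0.30 and 0.13 (limma adjusted p = 8.40e-06, 0.000133, 6.71e-05, 0.00152 and 0.0273). The Spred1 call was lost in 5 of the 6 fits that left out 1 library (adjusted p up to 0.0934).

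**Figure D4:**
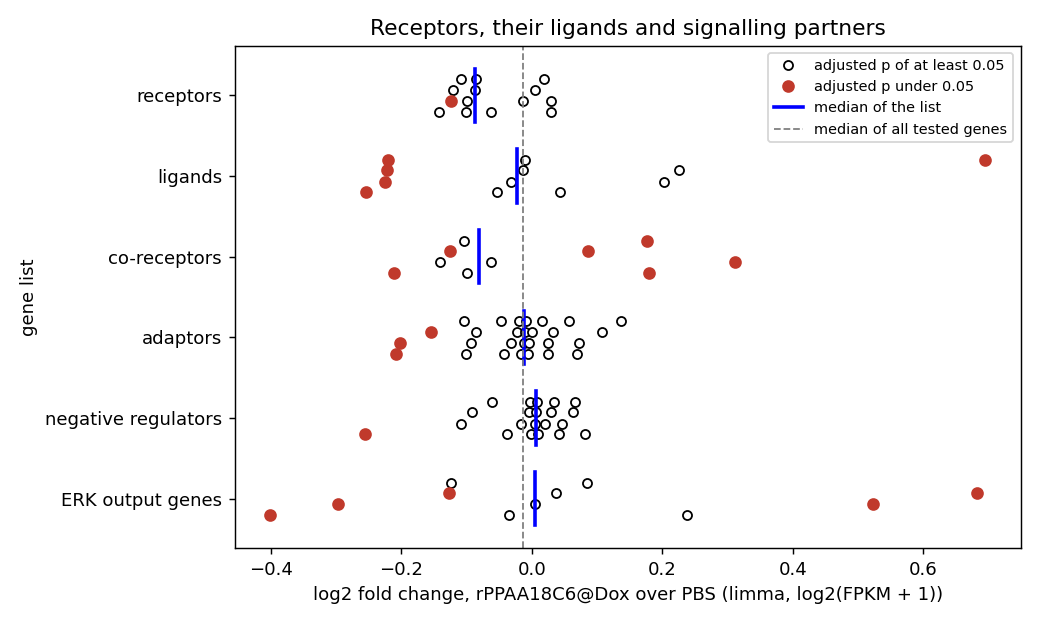
Log2 fold change (limma on log2(FPKM + 1), rPPAA18C6@Dox over PBS) of each tested gene, with 1 line per list, filled red where the adjusted p is under 0.05. Blue bars are list medians and the dashed line is the median of all tested genes. The 14 receptors lie between -0.14 and 0.03, and ligands and ERK output genes reach 0.69 and 0.68.

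The identity of the cells was checked against marker genes. All 7 melanocyte markers were present, with a summed level of 7198 to 7228 FPKM in rPPAA18C6@Dox cells and 6145 to 6233 FPKM in PBS cells, and 5 of the 7 rose, Pmel, Tyr, Tyrp1, Dct and Mitf. Markers of other cells that also carry these receptors were low. The 4 of 8 immune markers with a row summed to 2.22 to 2.78 FPKM in rPPAA18C6@Dox cells and 2.32 to 2.92 FPKM in PBS cells, and Ptprc, Adgre1, Itgam and Cd3e had no row. Cd68, a lysosomal protein of macrophages and the 1 immune marker tested, rose to 1.66 ± 0.0551 FPKM in rPPAA18C6@Dox cells, against 1.27 ± 0.0623 FPKM in PBS cells (SD, n = 3 each; limma adjusted p = 0.0311). The 3 of 6 fibroblast and pericyte markers summed to 1.247 to 1.41 FPKM in rPPAA18C6@Dox cells and 1.31 to 1.71 FPKM in PBS cells. The 2 of 5 endothelial markers, Vwf and Pecam1, summed to 4.72 to 4.88 FPKM in rPPAA18C6@Dox cells and 2.90 to 3.23 FPKM in PBS cells, and Vwf rose (0.79, limma adjusted p = 5.91e-05). The 1 of 6 epithelial and the 3 of 4 neural markers with a row summed to at most 0.280 and 0.506 FPKM in any library. Of 13 mitochondrial and nuclear noncoding transcripts listed as signs of RNA quality, ND6 and Malat1 fell (-0.54 each, limma adjusted p = 0.00909 and 0.0176). The part of the melanocyte, immune, endothelial and RNA quality values in the receptor and ligand results was not tested. In such bulk samples, fewer cells with a transcript and less of it per cell cannot be told apart.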

How the data were processed

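RNA of 6 B16F10 libraries was sequenced after a stranded poly(A) mRNA kit, per the labels' protocols. The authors deposited 1 value per gene and library, read here as FPKM from the values since the header names no unit, and an unadjusted p-value per gene whose test the deposited table does not state. The submitters' processing notes name mm9 as the build, and aligner, counter and filters are not given there or in the labels. Columns named for PBS matched the PBS titles. The other 3 were assigned to rPPAA18C6@Dox by elimination, by their number and by the reading of these columns supplied with the gene list, so every sign rests on this.

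One factor per gene turned the values of 15726 of 15726 genes (100%) into whole reads within 0.01, with totals of 36380462 to 37067116 reads per library. Libraries of a group differed by more than sampling noise (mean chi-square per gene 2.39 to 4.33 between pairs, where noise alone would give 1), and each was counted once. Depth limits precision most for receptors under 1 FPKM.

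limma 3.58.1 in R 4.3.3 fitted log2(FPKM + 1) with its mean-variance trend, in unpaired two-sided tests, over genes with a mean of at least 1 FPKM in either group. This scale understates changes of low genes. Of the planned count-based alternatives, voom alone was run, on the recovered reads. The script was tested on simulated data. Alternatives were another pseudocount, filter or normalization, no trend, a replicate block, voom and leaving out each library. Named were the tested receptors, the list genes past the threshold and ligands of tested receptors. All other tested ligands, and Vegfd, were added after their values were seen. The 7 ratios within families were also chosen after the values were seen. Members and lists were chosen with earlier results of these data known.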

Additional observations from a re-analysis of the deposited data

How the results depend on the processing

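The number of expressed receptors was 14, and 13 to 15 with a cut of 2 or 0.5 FPKM. The count of receptors past the threshold was 1, 4 with voom on recovered reads and 0 with the replicate block or with any 1 library left out (range 0 to 0). Of all genes 1060 passed (498 higher, 562 lower), 1636 with voom (703 higher, 933 lower), 681 with no filter on low values and 600 to 749 with 1 library left out. More genes were higher than lower with quantile normalization (551 and 499), with the replicate block (421 and 404) and with no filter (346 and 335). The same held without rPPAA18C6@Dox replicate 2 (371 and 332) or 3 (336 and 295), and without PBS replicate 1 (328 and 308) or 3 (315 and 285). It did not hold without rPPAA18C6@Dox replicate 1 (368 higher and 381 lower) or PBS replicate 2 (314 and 315). Ligands past the threshold were 5 of 12 tested, 2 with no filter, 3 with the filter at 5 FPKM and 2 to 6 with 1 library left out. The filter at 5 FPKM left 6 ligands in the test. Pgf and Angpt2 were no longer tested, and Csf1, Vegfc and Agrn still passed. Adaptors were 3, 1 with the replicate block, 1 when unfiltered and 1 to 2 with 1 library left out. Co-receptors were 6, with 3 to 5 when 1 library was left out, alternatives chosen after seeing the data. The counts of negative regulators (1 to 1) and ERK output genes (4 to 5) stayed within 1.5 times under every alternative run. The cause of these shifts was not tested. Some of these fits also held fewer libraries or a changed number of genes.

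Signs turned only in receptors and ligands that did not pass. With 1 library left out, log2 fold changes ran from -0.000791 to 0.0448 for Ddr2, -0.0120 to 0.0371 for Ryk, -0.0370 to 0.0391 for Lmtk2, -0.0836 to 0.0218 for Vegfa, -0.0526 to 0.0180 for Pros1 and -0.0489 to 0.0400 for Pdgfa. Pdgfa was at 0.0105 with quantile normalization. Of 521 comparisons of 41 named genes with an alternative, 440 kept sign and call, 65 lost the call, 5 gained it and 11 changed sign.

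Titles give both groups the numbers 1 to 3 without saying that they pair libraries. Deviations of same-numbered libraries correlated at -0.00238, 0.0549 and -0.0210 over genes, and not every library correlated best with its own number, so they were not treated as pairs. With the replicate block 825 genes passed, and Erbb3 had an adjusted p of 0.0651. The edgeR and DESeq2 alternatives were not run.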
